A study of Mus musculus with 8 samples.

Results

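Transcription factors of the visceral endoderm were followed in mouse epiblast at embryonic day 5.5 from which that layer had been dissected away. The visceral endoderm is the epithelium that encloses the early embryo, feeds it, and patterns it from outside. The set holds 8 genes, chosen by name, of 52636 in the deposited count table. They are Sox17, Sox7, Gata4, Gata6, Hnf4a, Foxa2, Foxa1 and Eps8l2. Of these, 7 encode DNA-binding factors. Eps8l2 encodes a member of the EPS8 family of actin regulators and is not a transcription factor, so the set is called the endoderm factors and Eps8l2 below. All 8 genes had enough counts to be tested.

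The embryos carried Sox2Cre and the CRAFR26 allele, a construct through which ERK is induced by 4-hydroxytamoxifen (4OHT). Sox2Cre drives recombination in the epiblast. The comparison has 4 groups of 2 libraries each: vehicle (ethanol) in clone 4, vehicle in clone 8, 250 nM 4OHT for 4 h in clone 4, and the same 4OHT treatment in clone 8. Every group had the same genotype, and 10 epiblasts were pooled for each library, which was made from 7 ng of RNA. The titles give the vehicle libraries as 0 h while their treatment label reads 4 h, so culture time and treatment cannot be told apart if they were not cultured. The mouse line was derived from embryonic stem cells with the construct placed in morulas, and a difference between clones rests on 1 clone each. The labels do not say whether the pools came from separate litters, and p-values measure the spread between these libraries. Totals were 33.3 M to 38.0 M counts in vehicle and 56.4 M to 72.5 M in 4OHT libraries. Every 4OHT library was deeper than every vehicle library, so depth and treatment cannot be told apart. Levels below are counts per 1000000 of the scaled library size (CPM).

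In the blastocyst, Gata6 and Gata4, a pair of zinc-finger factors, and the SoxF factors Sox17 and Sox7 act in the primitive endoderm, the layer that gives rise to visceral and parietal endoderm. FGF and ERK signalling is known to favour that fate over epiblast. In visceral endoderm, Hnf4a, a nuclear receptor, drives genes for apolipoproteins and transthyretin, and the forkhead factors Foxa2 and Foxa1 act upstream of many endoderm genes. Sox17 and Foxa2 are also made in definitive endoderm, which forms from the epiblast at gastrulation.

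Promoter sequences are shown for Hnf4a, the member whose response differed most between the clones, for its forkhead companions Foxa2 and Foxa1, and for Eps8l2, whose profile differed from the rest. They come from RefSeq (GRCm38.p6), written 5′ to 3′ on the gene's strand, and run from 250 bases before to 50 bases after a start site. Promoters of 4 of the members were searched, with 7 start sites. Sox17, Sox7 and Gata4 had no entry in the promoter table, and Gata6 was left out of the search. Capitals mark matches on either strand to short motifs. The zinc-finger motif searched for was AGATAA, bound by Gata4 and its relatives. The forkhead motif was TGTTTAC, with the variant that reads TGTTTGC counted too. For the nuclear receptor the letters were CAAAGTC, which occur in Hnf4a sites. The motif of Sox factors was written as ACAATG.

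Hnf4a (chr2:163506607-163506906, plus strand): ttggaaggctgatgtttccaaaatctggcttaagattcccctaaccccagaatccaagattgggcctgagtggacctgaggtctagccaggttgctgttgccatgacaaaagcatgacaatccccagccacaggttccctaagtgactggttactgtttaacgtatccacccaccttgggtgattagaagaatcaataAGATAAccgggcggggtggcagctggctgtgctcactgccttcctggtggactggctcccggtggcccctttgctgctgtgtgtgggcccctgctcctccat
Foxa2 (chr2:148045415-148045714, minus strand): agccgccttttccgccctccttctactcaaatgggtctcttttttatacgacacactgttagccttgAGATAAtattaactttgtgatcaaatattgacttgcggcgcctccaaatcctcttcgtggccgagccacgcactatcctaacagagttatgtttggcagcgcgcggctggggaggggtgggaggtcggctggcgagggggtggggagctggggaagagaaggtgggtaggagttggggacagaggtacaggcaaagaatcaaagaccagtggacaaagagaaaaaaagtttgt
Foxa1 (chr12:57546062-57546361, minus strand): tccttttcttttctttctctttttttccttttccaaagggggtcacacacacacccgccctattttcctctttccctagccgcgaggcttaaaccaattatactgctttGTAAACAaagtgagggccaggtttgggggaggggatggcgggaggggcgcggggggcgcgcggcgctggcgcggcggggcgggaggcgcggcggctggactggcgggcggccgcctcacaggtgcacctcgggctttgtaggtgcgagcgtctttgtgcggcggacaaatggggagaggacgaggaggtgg
Eps8l2 (chr7:141338752-141339051, plus strand): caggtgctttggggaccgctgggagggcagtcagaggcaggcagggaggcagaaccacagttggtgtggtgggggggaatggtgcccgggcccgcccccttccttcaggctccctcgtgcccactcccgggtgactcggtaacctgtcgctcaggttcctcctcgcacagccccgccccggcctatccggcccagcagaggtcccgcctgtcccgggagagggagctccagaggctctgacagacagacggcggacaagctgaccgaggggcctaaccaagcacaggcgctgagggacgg

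The Hnf4a promoter shown held 1 zinc-finger match, and its other promoter held 0 matches. The Foxa2 promoter shown held 1 zinc-finger match, and the other two Foxa2 promoters held 0 matches. The Foxa1 promoter held 1 forkhead match, and that of Eps8l2 held 0. No motif overlapped another. Of all 32851 promoters in the table, 11.2% held a zinc-finger match, 8.48% a forkhead match, 4.44% a nuclear receptor match and 12.6% a Sox match. A match is a string of letters and not a measured binding site.

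The endoderm factors were measurable in every library, at levels well below those of abundant epiblast genes. Not all epiblast genes were higher: Sox2 and Nodal had means of 18.9 and 23.0 CPM over all libraries. Sox17 and Gata4 had means of 36.1 and 28.8 CPM. The epiblast genes Utf1 and Pou5f1 stood at 783 to 1231 CPM and 435 to 888 CPM, and the 9 listed epiblast genes summed to 4482 to 5641 CPM. The 8 members summed to 44.6 to 239 CPM. Compared per length, Sox17 and Gata4 took the first and second places among the factors in all 4 groups, at 3.43 and 2.77 CPM per kb in clone 4 vehicle and 5.85 and 5.34 in clone 8 vehicle. Their order exchanged in clone 4 after 4OHT, at 15.3 for Sox17 and 15.8 for Gata4, and these neighbours did not differ beyond the spread of their libraries. Gata6 and Foxa1 were the 2 lowest members in each group, at 0.193 to 0.825 CPM per kb and 0.280 to 0.757 CPM per kb.

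The response to 4OHT was measured in each clone, to ask whether endoderm factors moved when ERK was induced. In clone 4, the 4OHT libraries held more Sox17, Sox7, Gata4 and Hnf4a than the vehicle libraries by a fold of 4.45 to 5.99. In clone 8, the first 3 of these had means close to those of vehicle, while Hnf4a fell and Eps8l2 rose. The clone 4 values did not pass the test after adjustment. In these bulk pools, fewer cells of a type and less RNA per cell cannot be told apart.

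Sox17, a SoxF factor of endoderm, stood at 22.6 and 10.2 CPM in clone 4 vehicle libraries 1 and 2, and at 67.2 and 78.8 CPM in the 4OHT libraries of that clone. In clone 8 it stood at 22.9 and 32.9 CPM in vehicle and at 18.8 and 35.3 CPM in 4OHT libraries. Both clone 4 4OHT libraries lay above every other library, and the clone 8 groups overlapped. The log2 fold change was 2.15 (SE 0.40) in clone 4 and -0.05 (SE 0.38) in clone 8, with adjusted p-values of 0.0849 and 0.946 in edgeR's quasi-likelihood test.

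Sox7, its paralog, stood at 8.21 and 4.47 CPM in clone 4 vehicle and at 35.0 and 40.0 CPM in clone 4 4OHT libraries. In clone 8 it stood at 8.08 and 12.1 CPM in vehicle and at 3.59 and 18.1 CPM in 4OHT libraries. The clone 8 4OHT libraries held both the lowest value of Sox7 and the highest outside clone 4 4OHT. The log2 fold change was 2.56 (SE 0.63) in clone 4 and 0.11 (SE 0.60) in clone 8, with adjusted p-values of 0.173 and 0.918. The sign in clone 8 rested on single libraries, with -1.49 without 4OHT clone 8 replicate 2, where the adjusted p was 0.0383, and -0.17 without vehicle clone 8 replicate 1.

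Gata4, a zinc-finger factor, stood at 17.1 and 4.52 CPM in clone 4 vehicle and at 67.0 and 56.6 CPM in clone 4 4OHT libraries. In clone 8 it stood at 16.4 and 25.4 CPM in vehicle and at 13.6 and 29.8 CPM in 4OHT libraries. As for Sox17, both clone 4 4OHT libraries were the highest of the 8, and the clone 8 groups overlapped. The log2 fold change was 2.51 (SE 0.57) in clone 4 and 0.06 (SE 0.54) in clone 8, with adjusted p-values of 0.144 and 0.955. The value in clone 8 was -0.63 without 4OHT clone 8 replicate 2 and -0.25 without vehicle clone 8 replicate 1. Gata4 (chr14:63198922-63271692) and Sox7 (chr14:63943673-63950732) lie on the same chromosome in GRCm38.

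Gata6, the second GATA factor, was about as low as Foxa1, and its highest libraries were in another group than those of Gata4. It stood at 2.03 and 0.476 CPM in clone 4 vehicle, 2.87 and 2.08 CPM in clone 4 4OHT, 5.41 and 5.33 CPM in clone 8 vehicle, and 1.96 and 2.62 CPM in clone 8 4OHT libraries. The clone 8 vehicle libraries were the highest of the 8, above both groups treated with 4OHT. The log2 fold change was 0.97 (SE 0.55) in clone 4 and -1.23 (SE 0.53) in clone 8, with adjusted p-values of 0.631 and 0.14. The lowest value rests on 16 counts in vehicle clone 4 replicate 2 (95% exact Poisson interval 9.15 to 26.0, counting error only). The ratio of Gata6 to Gata4 CPM was 0.119 and 0.105 in vehicle and 0.0428 and 0.0368 in 4OHT libraries of clone 4, and 0.330 and 0.210 in vehicle and 0.144 and 0.0880 in 4OHT libraries of clone 8. Within each clone the ratio was lower in both 4OHT libraries than in both vehicle libraries; it was chosen after the values were seen and was not tested.

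Hnf4a, the nuclear receptor of the set, moved in opposite directions in the clones. It stood at 6.15 and 2.29 CPM in clone 4 vehicle and at 26.2 and 24.7 CPM in clone 4 4OHT libraries. In clone 8 it stood at 16.8 and 22.7 CPM in vehicle and at 4.16 and 7.12 CPM in 4OHT libraries. The groups did not overlap in either clone, and the high libraries were those of vehicle in clone 8 and of 4OHT in clone 4. In clone 8 it fell, by -1.80 on the log2 scale (SE 0.42, adjusted p 0.0226 by edgeR's test). Clone 4 gave 2.58 on that scale (SE 0.43), and its adjusted p was 0.0658. Hnf4a and Gata6 were the 2 members with both 4OHT libraries above vehicle in clone 4 and below it in clone 8, a pattern seen in 6.74% of tested genes. The fall in clone 8 did not pass without vehicle clone 8 replicate 1 (-2.03, adjusted p 0.115), vehicle clone 8 replicate 2 (-1.60, adjusted p 0.089) or 4OHT clone 8 replicate 1 (-1.47, adjusted p 0.0579).

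Foxa2, a forkhead factor, stood at 6.74 and 2.23 CPM in clone 4 vehicle, 17.7 and 11.3 CPM in clone 4 4OHT, 11.4 and 12.5 CPM in clone 8 vehicle, and 3.82 and 13.1 CPM in clone 8 4OHT libraries. The clone 4 groups did not overlap, while 1 clone 8 4OHT library was below and 1 above both vehicle libraries. The log2 fold change was 1.69 (SE 0.60) in clone 4 and -0.50 (SE 0.58) in clone 8, with adjusted p-values of 0.377 and 0.594. The value in clone 8 was 0.14 without 4OHT clone 8 replicate 1.

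Foxa1, its paralog, stood at 1.42 and 0.447 CPM in clone 4 vehicle, 2.06 and 1.42 CPM in clone 4 4OHT, 2.93 and 2.11 CPM in clone 8 vehicle, and 0.546 and 3.95 CPM in clone 8 4OHT libraries. The groups overlapped in both clones. The log2 fold change was 0.89 (SE 0.82) in clone 4 and -0.16 (SE 0.79) in clone 8, with adjusted p-values of 0.807 and 0.907. Its lowest value rests on 15 counts (95% exact Poisson interval 8.40 to 24.7). The value in clone 8 was 0.65 without 4OHT clone 8 replicate 1 and 0.08 without vehicle clone 8 replicate 1.

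Eps8l2, the actin regulator, stood at 23.0 and 19.9 CPM in clone 4 vehicle and at 19.9 and 24.1 CPM in clone 4 4OHT libraries. In clone 8 it stood at 6.13 and 10.1 CPM in vehicle and at 15.7 and 24.4 CPM in 4OHT libraries. The 2 clone 8 vehicle libraries were the lowest of the 8, and the clone 4 groups overlapped. It rose in clone 8, by 1.31 on the log2 scale (SE 0.29, adjusted p 0.0201 by edgeR's test), and the value in clone 4 was 0.04 (SE 0.28, adjusted p 0.986). The rise did not pass without vehicle clone 8 replicate 1 (0.97, adjusted p 0.182) or 4OHT clone 8 replicate 2 (0.95, adjusted p 0.0608).

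**Figure D1:**
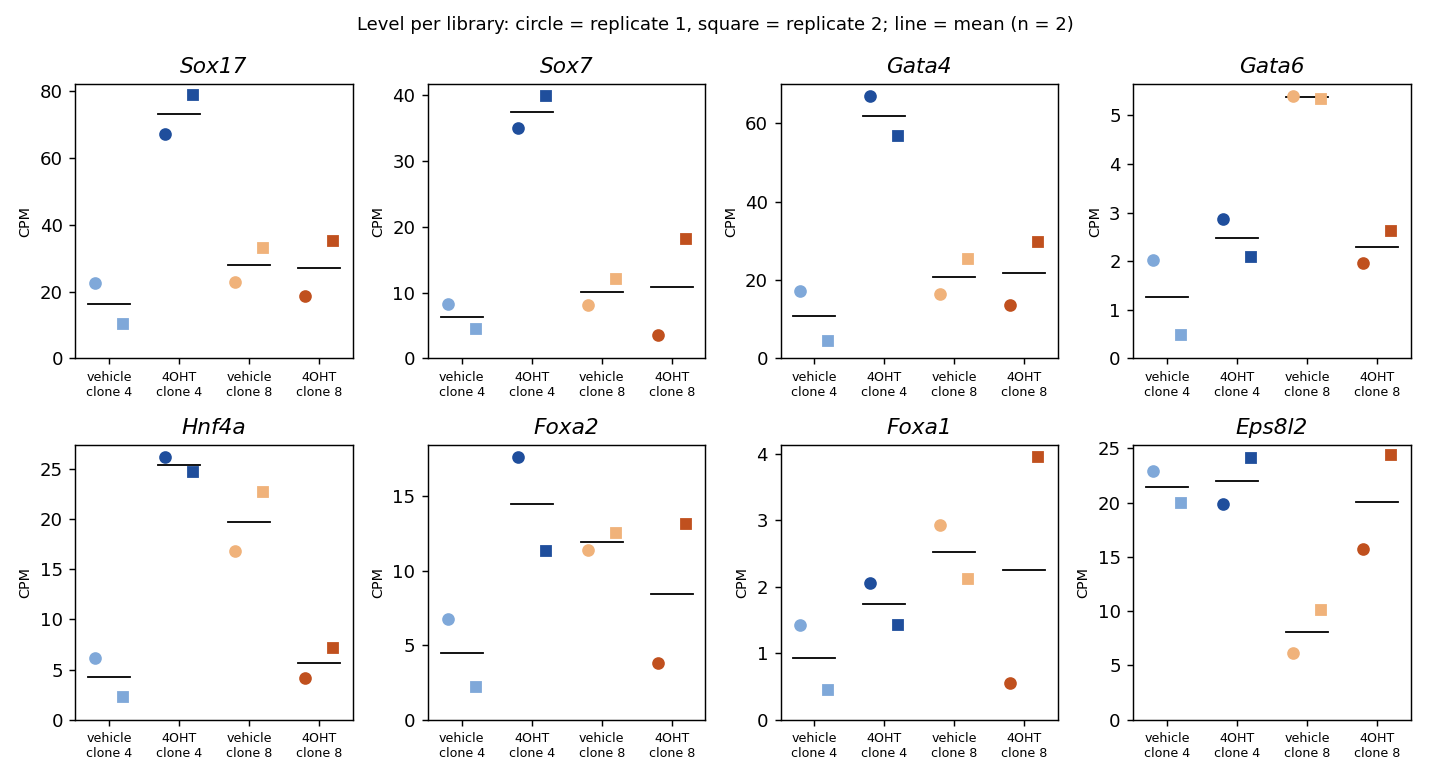
CPM of each member (y axis, from 0, scale differs by panel) in the 4 groups (x axis), with 1 point per library and a line at the group mean of 2. Sox17, Sox7 and Gata4 are highest in both clone 4 4OHT libraries, Hnf4a is high in clone 4 4OHT and clone 8 vehicle, and Eps8l2 is lowest in clone 8 vehicle at 6.13 and 10.1 CPM.

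In clone 4, 0 of the 8 members were called at an adjusted p under 0.05 by edgeR's quasi-likelihood test, where 0.0382% of the 18321 tested genes were called in either direction. At an unadjusted p under 0.05 there were 5 members and 9.9% of tested genes, and DESeq2 called 3, which were Sox17, Gata4 and Hnf4a, where it called 2.54% of tested genes. The 8 members had a median log2 fold change of 1.92 in clone 4, with 8 of 8 above 0, against a median of -0.00 over all tested genes. For 6 members both 4OHT libraries lay above both vehicle libraries, as did those of 23.7% of all tested genes, and for 0 members they lay below, as for 23.8% of genes. Without 4OHT clone 8 replicate 1 or 4OHT clone 8 replicate 2, neither of which enters the contrast, 4 members were called in clone 4, and they were Sox17, Sox7, Gata4 and Hnf4a in both fits. Those fits called 1.43% and 1.38% of tested genes.

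In clone 8, 2 of 8 members were called, 1 in each direction, where 16.6% of tested genes were called, 8% higher and 8.6% lower. The median of the 8 was -0.11, with 3 above 0, against 0.07 over all tested genes. Both 4OHT libraries lay above both vehicle libraries for 1 member and below them for 2, against 31.7% and 28.3% of tested genes. At an unadjusted p under 0.05 by edgeR's test there were 3 members and 6076 of the 18321 tested genes. DESeq2 called Hnf4a and Eps8l2, where it called 23.3% of tested genes. The members' counts in clone 8 were thus near the background. Without vehicle clone 8 replicate 1, 0 members and 0 genes were called there.

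**Figure D2:**
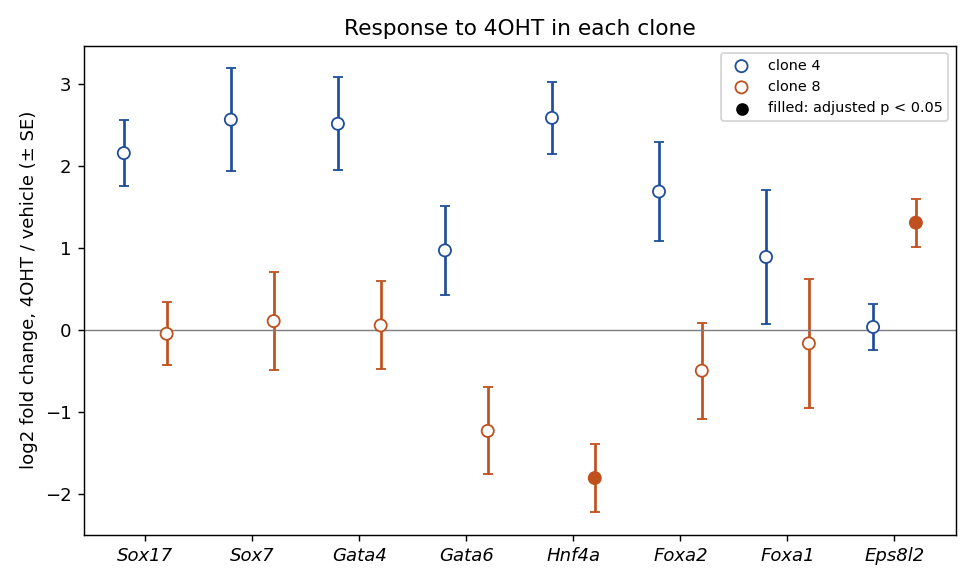
Log2 fold change of 4OHT over vehicle (y axis, ± SE) for each member (x axis) in clone 4 and clone 8, with filled points at an adjusted p under 0.05. Only Hnf4a and Eps8l2 in clone 8 are filled, at -1.80 and 1.31.

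The difference of the responses was tested next, since a call in a single clone does not show that the clones differ. For 7 of 8 members the response was lower in clone 8, with a median difference of -2.20 on the log2 scale against 0.05 over all tested genes. Hnf4a was the 1 member called, with a difference of -4.39 (SE 0.60, adjusted p 0.023), where 2.83% of tested genes were called, 1.08% higher and 1.75% lower in clone 8. The difference of Hnf4a did not pass without vehicle clone 8 replicate 1 (-4.61, adjusted p 0.112), 4OHT clone 4 replicate 1 (-4.35, adjusted p 0.0831) or 4OHT clone 4 replicate 2 (-4.43, adjusted p 0.0855).

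The other factors had differences of -2.20 (SE 0.55) for Sox17, -2.45 (SE 0.85) for Sox7, -2.46 (SE 0.77) for Gata4, -2.20 (SE 0.76) for Gata6, -2.18 (SE 0.84) for Foxa2 and -1.05 (SE 1.14) for Foxa1. Their adjusted p-values ran from 0.0678 for Sox17 to 0.617 for Foxa1. Eps8l2 was the 1 member with a higher response in clone 8, at 1.27 (SE 0.41, adjusted p 0.117). Without 4OHT clone 8 replicate 2, 4 members were called lower in clone 8, which were Sox17, Sox7, Hnf4a and Foxa2, where 4.65% of tested genes were called. With the replicate number as a block, 3 were called, which were Sox17, Gata4 and Hnf4a, where 2.46% of tested genes were called.

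With both clones in 1 fit and clone as a term, 0 of 8 members were called by the same test, where 0.00546% of tested genes were called. DESeq2 also called 0, where it called 5.59% of tested genes. The log2 fold changes were 1.05 (SE 0.47) for Sox17, 1.33 (SE 0.62) for Sox7, 1.28 (SE 0.59) for Gata4 and 0.67 (SE 0.30) for Eps8l2. At an unadjusted p under 0.05 there was 1 member, Eps8l2, and 16.9% of tested genes. Hnf4a stood at 0.37 (SE 0.93), with a sign that followed single libraries, from -0.62 without vehicle clone 4 replicate 2 to 1.31. The 4OHT and vehicle libraries overlapped for all 8 members, where 3.42% of tested genes lay wholly higher and 5.58% wholly lower after 4OHT.

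Replicates of the same group also differed in these genes. In clone 4 vehicle, replicate 1 was higher than replicate 2 for 8 of 8 members, by a ratio of 1.15 for Eps8l2 to 4.27 for Gata6. In clone 8 4OHT, replicate 2 was higher for 8 of 8, by 1.34 for Gata6 to 7.25 for Foxa1. Sox7 differed there by a ratio of 5.05 and Foxa2 by 3.44. The other two groups had no shared direction, with replicate 1 higher for 2 members and replicate 2 for 6 in clone 8 vehicle, and 5 and 3 in clone 4 4OHT.

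The median absolute log2 difference between replicates was 1.49 over the members in clone 4 vehicle, against 0.23 over all tested genes. In clone 8 4OHT it was 1.02 against 0.34. The other two groups were closer together, with 0.26 against 0.24 in clone 4 4OHT and 0.49 against 0.30 in clone 8 vehicle. Among the 6820 tested genes within the members' range of mean level, the medians were 0.22, 0.34, 0.22 and 0.27 in the same order of groups.

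**Figure D3:**
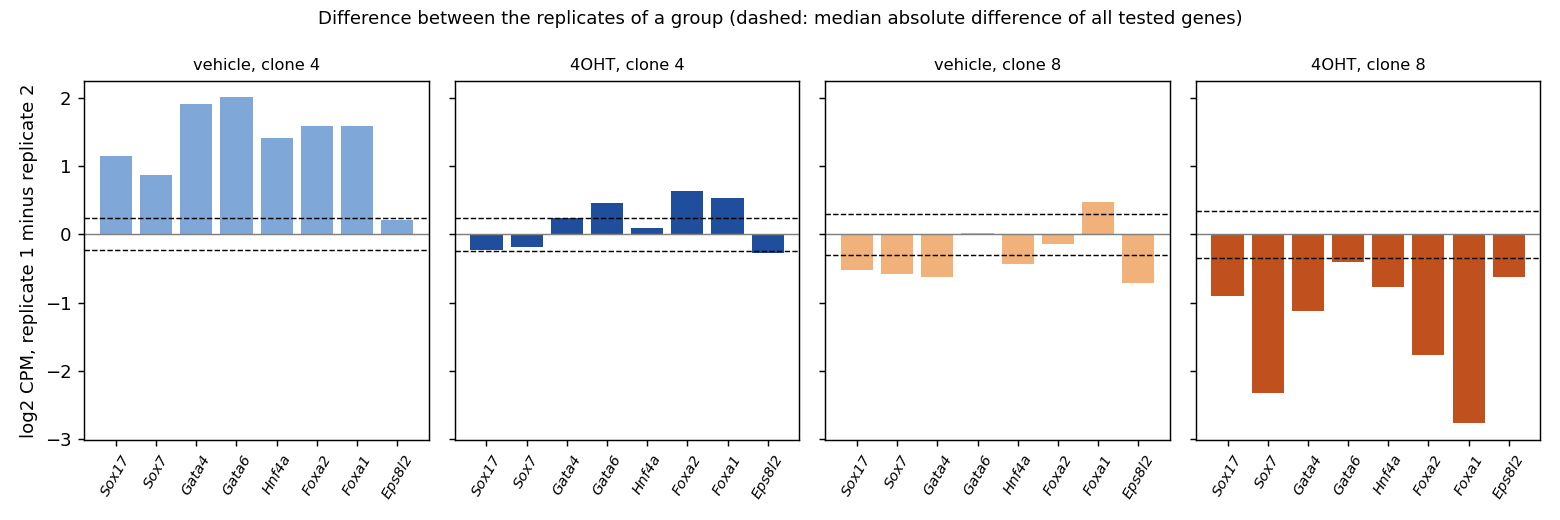
Log2 CPM of replicate 1 minus replicate 2 (y axis) for each member (x axis) in the 4 groups, with dashed lines at the median absolute difference of all tested genes. All 8 bars point up in clone 4 vehicle and all 8 point down in clone 8 4OHT.

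Other genes of visceral endoderm were read from lists to set beside the factors. The 12 secreted carriers include Apoe, Apoa1 and Ttr, of lipoproteins and thyroid hormone transport, and the 4 endocytic receptor genes include Amn and Cubn, whose products form the cubilin complex. Dab2, on the same list, encodes an endocytic adaptor. Although the layer was dissected away, Apoe stood at 423 to 1760 CPM and Amn at 54.5 to 339 CPM over the 8 libraries.

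The tested carriers and receptors, 15 genes, summed to 1688 and 1275 CPM in clone 4 vehicle, 4209 and 5005 CPM in clone 4 4OHT, 3471 and 3283 CPM in clone 8 vehicle, and 986 and 2349 CPM in clone 8 4OHT libraries. The high libraries were thus those in which Hnf4a was high. The part of the amount of visceral endoderm in the responses above was not tested.

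Of the 11 carriers tested, 11 were above 0 in clone 4 (median 1.72; edgeR called 0, DESeq2 called 4, and 11 had an unadjusted p under 0.05) and 11 were below 0 in clone 8 (median -1.19), where 4 fell: Ttr, Rbp4, Apoa1 and Apom. For the difference between clones 8 of 11 carriers and 2 of 4 receptor genes, Amn and Cubn, were called, all lower in clone 8. Of all tested genes edgeR called 1.75% lower for the difference and 8.6% lower in clone 8. In clone 4 it called 0.0382%, DESeq2 called 2.54%, and 9.9% had an unadjusted p under 0.05. For the difference, 0 carriers and 0 receptor genes were called without vehicle clone 8 replicate 1 or any 1 of the 4 clone 4 libraries. Without vehicle clone 8 replicate 2 the carriers had 2 calls, without 4OHT clone 8 replicate 1 they had 9, and without 4OHT clone 8 replicate 2 they had 11. Within clone 8 the carriers had 0 calls without vehicle clone 8 replicate 1, 2 without the second vehicle library of that clone, and 11 when its second 4OHT library was left out.

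Of the 10 other regulators of visceral endoderm listed, 9 were tested. Sall4, Otx2 and Eomes, which the epiblast or the extraembryonic ectoderm also express, had log2 fold changes of -0.04, -0.28 and 0.39 in clone 4 and of -0.14, -0.38 and 0.25 in clone 8, with 0 calls by edgeR. Otx2 had an unadjusted p of 0.0356 in clone 4 and 0.00844 in clone 8 by edgeR's test. An unadjusted p under 0.05 was reached by 9.9% of tested genes in clone 4 and by 6076 of 18321 in clone 8.

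Over the 8 libraries, which share the groups and the tissue, the log2 CPM of Hnf4a had a Pearson correlation of 0.934 with the mean of the carriers and receptors. The values were 0.884 for Foxa2, 0.862 for Sox7, 0.828 for Sox17, 0.795 for Gata4, 0.740 for Foxa1 and 0.631 for Gata6. Sox17 and Gata4 were the closest pair of members, at 0.984. Eps8l2 had -0.192 with the carriers and receptors and 0.912 with the extraembryonic ectoderm list, genes of the neighbouring layer that forms trophoblast. These are descriptions with no test.

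The extraembryonic ectoderm genes, 11 in the list, summed to 850 and 564 CPM in clone 4 vehicle, 187 and 238 CPM in clone 8 vehicle, 691 and 722 CPM in clone 4 4OHT and 823 and 694 CPM in clone 8 4OHT libraries. The clone 8 vehicle libraries were the lowest for this list, as they were for Eps8l2. In clone 4 their median log2 fold change was 0.04. There edgeR called 0 and DESeq2 called 2 lower, against 0.0382% and 2.54% of tested genes. For the difference between clones edgeR called 7, all higher in clone 8, against 1.08% of tested genes. In clone 8, 10 of the 11 rose after 4OHT by edgeR's test, where 8% of tested genes were called higher. Among them were Bmp4 (1.62, adjusted p 0.0129), Cdx2 (1.65, adjusted p 0.0108) and Tfap2c (2.04, adjusted p 0.00708). Without vehicle clone 8 replicate 1, 0 were called. The part of that layer in the rise of Eps8l2 was not tested.

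The 8 parietal endoderm genes, which include Sparc, Lamb1 and Col4a1 and are also made by visceral endoderm in part, summed to 319 to 635 CPM, with Thbd at a mean of 0.640 CPM over all libraries. In clone 4, 6 of the 8 were above 0, among them Col4a1 at 1.49 and Col4a2 at 1.74. There edgeR called 0, DESeq2 called 3 higher, and 3 had an unadjusted p under 0.05. In clone 8 edgeR called 1, Sparc, which fell (-0.81, adjusted p 0.0124), and DESeq2 called 2 higher and 1 lower. Of all tested genes DESeq2 called 23.3% in clone 8. For the difference 3 were called lower in clone 8, which were Sparc, Col4a1 and Col4a2, and 0 without any 1 of vehicle clone 8 replicate 1 and the 4 clone 4 libraries.

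The 6 signalling genes of visceral endoderm, led per length by Lefty1, Cer1 and Dkk1, had 0 calls by edgeR in either clone. Its unadjusted p was under 0.05 for 3 in clone 4 and 1 in clone 8, against 9.9% and 6076 of 18321 tested genes. DESeq2 called 2 and 1, against 2.54% and 23.3% of tested genes. Pdgfra, a growth factor receptor gene on this list, had a log2 fold change of 2.87 in clone 4 (adjusted p 0.166). For the difference edgeR called Ihh, a hedgehog ligand (-3.36, adjusted p 0.0447). That call did not pass without vehicle clone 8 replicate 1 or 2 or any 1 of the 4 clone 4 libraries.

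The 8 genes of primitive streak and definitive endoderm, led per length by Trh, Fgf8 and Mixl1, had 0 calls by edgeR in either clone. Its unadjusted p was under 0.05 for 2 in clone 4 and 4 in clone 8, against 9.9% and 6076 of 18321 tested genes. DESeq2 called 0 and 2, against 2.54% and 23.3% of tested genes. For the difference between clones edgeR called 0, and 5 had an unadjusted p under 0.05, against 22.7% of tested genes. Mean levels were 207, 33.3 and 32.2 CPM for Trh, Fgf8 and Mixl1, and 0.898 CPM for Cxcr4, a receptor found on definitive endoderm. Mixl1 had log2 fold changes of 1.90 in clone 4 and -0.04 in clone 8. Of the 8 genes, 5 were above 0 in clone 4 and 4 in clone 8.

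Of the 9 epiblast genes, 8 were below 0 in clone 4 and 8 in clone 8. In clone 4 edgeR called 0, DESeq2 called 1, and 3 had an unadjusted p under 0.05. Nanog stood at -1.52 there, Sox2 at -0.52 and Pou5f1 at -0.46. In clone 8, 4 fell by edgeR's test: Pou5f1, Sox2, Utf1 and Pou3f1. Without 4OHT clone 8 replicate 2 or vehicle clone 8 replicate 1, 0 were called there. For the difference between clones edgeR called 0 of the 9, DESeq2 called 1, and 1 had an unadjusted p under 0.05. Over all tested genes these shares were 2.83%, 9.86% and 22.7%.

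The level of each factor was also set against the summed carriers and receptors, a ratio chosen after the values were seen. Apoe was the most abundant gene in that sum, at 423 to 1760 CPM over the libraries, so the ratio leans on this gene. Per 1000 CPM of that sum, Sox17 stood at 6.59 to 13.4 CPM in the 4 vehicle libraries and 15.0 to 19.0 CPM in the 4 4OHT libraries. Gata4 stood at 3.55 to 10.1 CPM in vehicle and 11.3 to 15.9 CPM in 4OHT libraries. For both, every 4OHT library of either clone lay above every vehicle library, as was the case for 0.169% of tested genes. That share covers genes whether or not they follow the sum, so it is no reference for genes that do. In clone 8 the sum was 3471 and 3283 CPM in vehicle and 986 and 2349 CPM in 4OHT libraries. The log2 fold changes there were -0.047 for Sox17 and 0.055 for Gata4. The higher ratios in clone 8 thus went with a lower sum and not with higher levels of these genes. Whether the ratio reflects a response to 4OHT was not tested.

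The other 6 members overlapped on this ratio. Hnf4a stood at 1.80 to 6.90 CPM in vehicle and 3.03 to 6.21 CPM in 4OHT libraries, and Sox7 at 2.33 to 4.87 and 3.65 to 8.32 CPM. Against the carriers alone Sox17 and Gata4 again did not overlap, as for 0.306% of tested genes. The shares for carriers alone and receptors alone have the same limit as that for the joint sum. Against the receptors alone, where Dab2 is the most abundant gene, 0 members lay wholly higher, against 0.0327% of tested genes, with Sox17 at 31.6 to 49.6 CPM in vehicle and 42.3 to 62.9 CPM in 4OHT libraries.

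**Figure D4:**
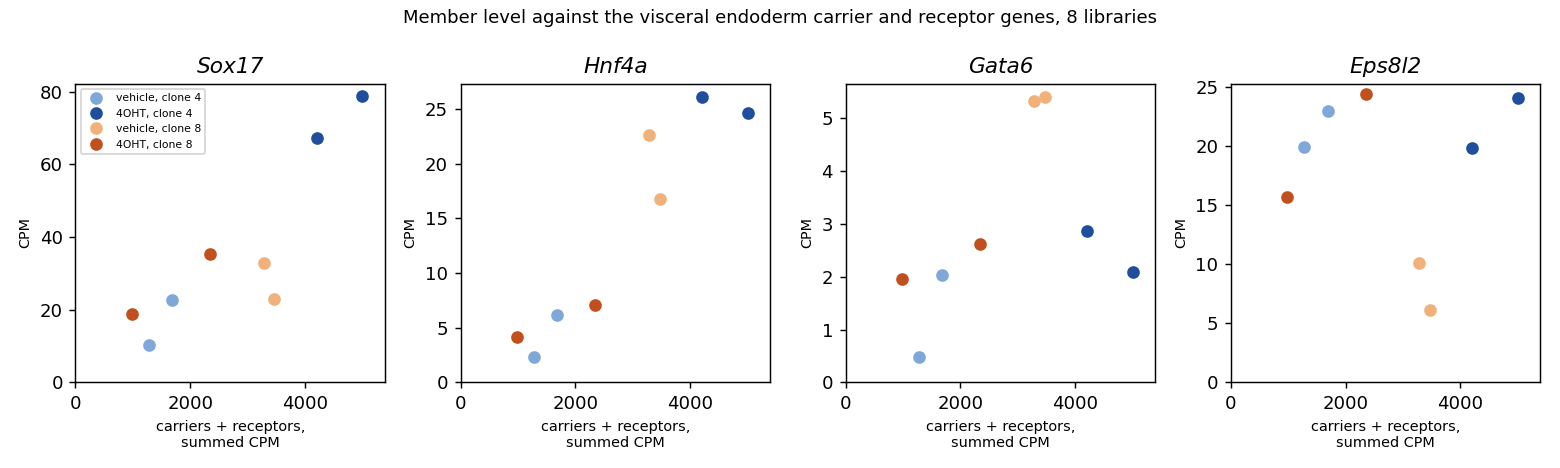
CPM of Sox17, Hnf4a, Gata6 and Eps8l2 (y axis, from 0) against the summed CPM of carrier and receptor genes (x axis), with 1 point per library. Sox17 in the 4 4OHT libraries is 15.0 to 19.0 CPM per 1000 CPM of the sum, Hnf4a is high where the sum is high, and Eps8l2 is lowest at the 2 clone 8 vehicle libraries.

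Among 11780 tested genes with a mean log2 CPM of at least 1, the 6 most like the mean log2 profile of the members over the 8 libraries were Sowahb, Fgf10, Hkdc1, Prss12, Prdm6 and Pdia5. Their Pearson correlations were 0.989, 0.986, 0.985, 0.983, 0.983 and 0.982. Fgf10 encodes a fibroblast growth factor, Hkdc1 a hexokinase domain protein, Prss12 a serine protease, Prdm6 a PR domain factor and Pdia5 a disulfide isomerase. Prss12 stood at 22.8 and 11.4 CPM in clone 4 vehicle, 44.2 and 46.3 CPM in clone 4 4OHT, 26.5 and 36.2 CPM in clone 8 vehicle, and 14.2 and 29.1 CPM in clone 8 4OHT libraries. Its highest libraries were the clone 4 4OHT pair, as for Sox17 and Gata4.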

How the data were processed

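RNA was sequenced from 8 libraries of mouse epiblast. The authors deposited raw read counts per Ensembl gene for each library, with no normalization, as the whole-number values and differing totals show. Per the submitters' processing notes, bcl2fastq 2.19.1, STAR 2.5.3a and the build mm10 were used. The counting program, annotation release and use of strand are not given in the sources used here, so overlapping and antisense genes are uncertain. Symbols matched 52403 of 52636 identifiers, and exonic lengths and positions came from GENCODE (GRCm38).

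Genes were kept by filterByExpr (minimum count 10), which left 18321. TMM scaling and edgeR 4.0.16 in R 4.3.3 (estimateDisp, glmQLFit with its default legacy option, glmQLFTest) gave quasi-likelihood tests with Benjamini-Hochberg adjustment over all tested genes, and calls at an adjusted p under 0.05. Clone and treatment were additive terms in 1 fit. A fit of the 4 groups gave the within-clone responses and their difference. SE is the log2 fold change divided by the square root of F, and 2 was the prior count for log2 CPM. The procedure was tested on simulated data. Alternatives were RLE size factors, no filter, DESeq2 1.42.0, a replicate block, the mean of the within-clone contrasts and leaving out each library; the legacy option off was added later, and its calls had been seen before the default was kept.

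Members and lists were chosen with earlier results of these data known. All 8 members are named. Of the 68 genes on the 8 other lists, up to 3 per list are named by mean CPM per kb, 1 listed regulator is not reported here, and called genes are named after their values were seen. The 6 genes with profiles most like the members were to be named among those with a mean log2 CPM of at least 1.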

Additional observations from a re-analysis of the deposited data

Results flagged for a closer look

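The response of Hnf4a to 4OHT differed between the clones by -4.39 on the log2 scale (clone 8 minus clone 4; edgeR quasi-likelihood adjusted p 0.023). Hnf4a was higher after 4OHT in both libraries of clone 4 and lower in both libraries of clone 8.

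In the 4 libraries of each condition, 32 values (the 8 members and the sums of the 8 other lists) were examined for 1 library far from the rest, and 2 passed Dixon's limit; chance flags about 1 in 20. The primitive streak and definitive endoderm genes summed to 542 CPM in 4OHT clone 8 replicate 2, above the 204 to 224 CPM of the other 4OHT libraries. The epiblast genes summed to 4975 CPM in 4OHT clone 4 replicate 1, above the 4482 to 4561 CPM of the others. No member passed the limit in this check.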

How the results depend on the processing

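Without the expression filter, 1337 genes and 4 members were called for both clones together, 728 genes and 5 members within clone 4, and 2114 genes and 7 members for the difference between clones. With DESeq2 these were 1024 genes, 466 genes and 3 members, and 1806 genes and 4 members. The mean of the within-clone contrasts called 1063 genes for both clones together, and the legacy option off called 16 in clone 4. With the replicate number as a block, 0 genes were called for both clones together and 0 in clone 4, and 3 members for the difference. In clone 8 the block gave -0.27 for Sox7 and -0.017 for Gata4. The deviations of same-numbered libraries correlated at 0.095 in clone 4 and -0.01 in clone 8, so the numbers were not taken to pair the libraries. The causes were not tested.

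Leaving out 1 library at a time gave 0 to 1 genes for both clones together, 0 to 267 genes and 0 to 4 members in clone 4, 0 to 3179 genes and 0 to 2 members in clone 8, and 0 to 1205 genes and 0 to 4 members for the difference; a lone library is assumed to vary like the others. Signs turned in some of these fits. For both clones together, Hnf4a ran from -0.62 to 1.31, Gata6 from -0.69 to 0.21 and Foxa1 from -0.17 to 0.79. In clone 4, Eps8l2 ran from -0.11 to 0.17. In clone 8, Sox17 ran from -0.58 to 0.34, Sox7 from -1.49 to 0.85, Gata4 from -0.63 to 0.51, Foxa2 from -1.65 to 0.14 and Foxa1 from -2.21 to 0.65. For the difference between clones, 0 of the members' values changed sign under any alternative run. Counting each member once per run, 86 values kept their side of the threshold, 15 became called and 3 lost their call. Against receptors alone, 0 members lay wholly higher after 4OHT, against 2 for carriers and receptors. Depth limits Gata6 and Foxa1 most, with as few as 16 and 15 counts.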
